A study of Mus musculus with 38 samples.

Results

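The genes described are the clustered replication-dependent histone genes of the mouse, taken as every gene whose array name starts with Hist, a cluster digit and h. They comprised 34 array names with 44 probes, which gave 38 entries in a gene table of 28786 (31 under a current reference symbol, 7 under the array name), of 41174 probes in all. By histone type there were 7 entries for H1, 12 for H2A, 9 for H2B, 3 for H3 and 7 for H4. The Hist1 cluster on chromosome 13 held 26 entries, Hist2 on chromosome 3 held 6, Hist3 on chromosome 11 held 4 and Hist4 on chromosome 6 held 2. The genes came to attention because Hist1h2ak and Hist1h2ai led the falls from adenoma to metastases, so for that comparison their values and those of the other histone genes are given as a description without a test.

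The samples came from MMTV-PyMT;actin-GFP hyperplasias, in which the mouse mammary tumor virus promoter drives polyoma middle T and an actin promoter drives GFP, grown as transplants in the mammary fat pads of FVB/n hosts. In the progression experiment the groups were adenoma (5-week outgrowths, n = 5), carcinoma (18-week outgrowths, n = 6), disseminated tumor cells from the lungs of hosts with 18-week outgrowths (n = 6) and lung metastases that grew after 18-week primary tumors had been removed (n = 5). In the chemotherapy experiment they were untreated tumors (n = 6), residual tumors 10 days after 1 dose of docetaxel, doxorubicin and cyclophosphamide (TAC, n = 6; labelled regressed) and relapsed tumors 10 days after 4 doses (n = 4; labelled resistant). GFP-positive cells were sorted in all 7 groups, GFP marks donor cells of any type, and each disseminated sample pooled the lungs of several mice. Every value is a log2 ratio of the sample (Cy5) to a Universal mouse reference RNA (Cy3), and since the progression RNA passed through an additional round of amplification, levels were not compared between the experiments.

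Core histones H2A, H2B, H3 and H4 form the nucleosome, and the linker histone H1 binds where DNA enters and leaves it. The clustered genes are transcribed mainly while DNA is replicated, under the coactivator Npat, and their mRNAs end in a stem-loop bound by Slbp in place of a poly(A) tail. The labeling kits primed from poly(A), and how much of the histone mRNA was captured was not measured, so the values compare samples with one another and do not give the amount of histone mRNA. Because whole sorted samples were measured, fewer cells of a type and less RNA per cell cannot be told apart.

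Histone promoters of one type are known to share short motifs near the start of transcription. A promoter was found for 27 of the 31 entries with a reference symbol (RefSeq, GRCm38.p6). The 150 bases before the start were searched on both strands for the CCAAT box (CCAAT), the TATA box (TATAAA), the octamer of H2A and H2B promoters (ATTTGCAT) and an H4 motif (GGTCCG). The CCAAT box was present in 24 of the 27 histone promoters (88.9%), against 24.5% of all 32851 promoters searched over the same length, and TATAAA in 13 (48.1% against 7.57%). The octamer was found in 7 (25.9% against 0.998%), namely in 5 of 10 H2A and 2 of 5 H2B promoters, and the H4 motif in 3 (11.1% against 4.42%), all 3 among the 4 H4 promoters. These matches describe letters in the window and not sites in use. The promoters of the 2 genes that led the falls and of a gene each for H2B, H4 and H1 are shown in transcription direction, with the motifs of either strand in capitals. They lie at chr13:21716262-21716411 (plus strand), chr13:21753913-21754062 (minus), chr13:21721894-21722043 (plus), chr13:23581418-23581567 (plus) and chr13:23738657-23738806 (plus), in the order printed.
Hist1h2ai (H2ac13): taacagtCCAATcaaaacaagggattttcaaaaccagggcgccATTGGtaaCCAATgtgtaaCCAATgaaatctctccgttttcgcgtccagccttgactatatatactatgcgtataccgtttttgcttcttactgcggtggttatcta
Hist1h2ak (H2ac15): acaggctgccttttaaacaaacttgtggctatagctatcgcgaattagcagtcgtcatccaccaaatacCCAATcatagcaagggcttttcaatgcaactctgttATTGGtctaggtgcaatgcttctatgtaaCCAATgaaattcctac
Hist1h2bm (H2bc14): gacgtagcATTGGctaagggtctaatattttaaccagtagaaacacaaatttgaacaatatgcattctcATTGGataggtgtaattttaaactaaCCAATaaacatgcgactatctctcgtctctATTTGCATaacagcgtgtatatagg
Hist1h4d (H4c4): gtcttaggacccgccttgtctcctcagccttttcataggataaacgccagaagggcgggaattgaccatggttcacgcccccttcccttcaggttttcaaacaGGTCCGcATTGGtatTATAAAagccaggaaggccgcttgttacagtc
Hist1h1c (H1f2): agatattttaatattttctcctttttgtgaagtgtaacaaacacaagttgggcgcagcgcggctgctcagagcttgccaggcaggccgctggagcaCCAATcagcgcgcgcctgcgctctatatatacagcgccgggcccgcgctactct
Both H2A promoters of the genes that led the falls carry several CCAAT boxes and neither of them holds the octamer, which the H2B promoter has near the start. The H4 promoter carries the H4 motif, a CCAAT box and a TATA box within a short stretch, and the H1 promoter a single CCAAT box. The Hist1h2ai probe lists 4 genes and lies on the minus strand by the array's coordinates. Its values may therefore not be those of the gene whose promoter is printed.

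The sample channel was well above background on every progression array for 28 of the 38 entries, on some arrays for 8 and on none for 2, and no histone spot was saturated. The members are not independent measurements. Of the 44 probes, 14 list several RefSeq transcripts in the array annotation, and 11 entries fall into 5 sets that list a common target. The probes that stand for Hist1h2ai, Hist1h2bk, Hist1h2bm, Hist1h4d and Hist1h4f each list 4 genes, so their values may stand for several genes. Over the 22 progression arrays Hist1h2ai had a standard deviation of 1.97, as had Hist1h2ak, whereas their difference had one of 0.088. For the H2B genes Hist1h2bk (H2bc12) and Hist1h2bm the difference had a standard deviation of 0.0319, and for the H4 genes Hist1h4d and Hist1h4f (H4c6) of 0.0707. Hist1h2aa and Hist1h2ba, known as testis genes, followed Hist1h2af and Hist1h2bm, with standard deviations of the difference of 0.158 and 0.272. Whether their signals come from the testis genes themselves was not tested.

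The plot of all histone genes by sample shows how they varied together. The median log2 ratio of the 38 entries was 0.05, 0.15, 0.87, 1.28 and 0.26 in the 5 adenomas, and 0.07, 0.35, 0.31, 0.22, 0.28 and −0.49 in the 6 carcinomas. It was −1.21, −0.23, −0.52, 0.61, −1.34 and −1.02 in the disseminated cells and −1.28, −1.41, −1.19, −1.80 and −0.29 in the metastases. The adenomas all lay above 0, the metastases all below it, and the disseminated cells spread over both, with replicate 4 above most primary tumors. Within adenoma and within disseminated cells the arrays of weakest signal had the highest histone medians. The median background-corrected sample signal was 68.7 and 98.6 in adenoma replicates 3 and 4 and 209 to 237 in the other adenomas, and 85.8 in disseminated replicate 4, 148 and 189 in replicates 2 and 3 and 321 to 478 in replicates 1, 5 and 6. It was 227 to 361 in carcinoma and 419 to 522 in metastases, the group with the lowest histone medians. Within metastases, by contrast, the array of weakest signal (replicate 4, 419) had the lowest histone median, −1.80. Within carcinoma the median was 0.28 at the weakest signal (replicate 5, 227) and 0.22 at the strongest (replicate 4, 361). The part of signal strength in the histone values was not tested.

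**Figure D1:**
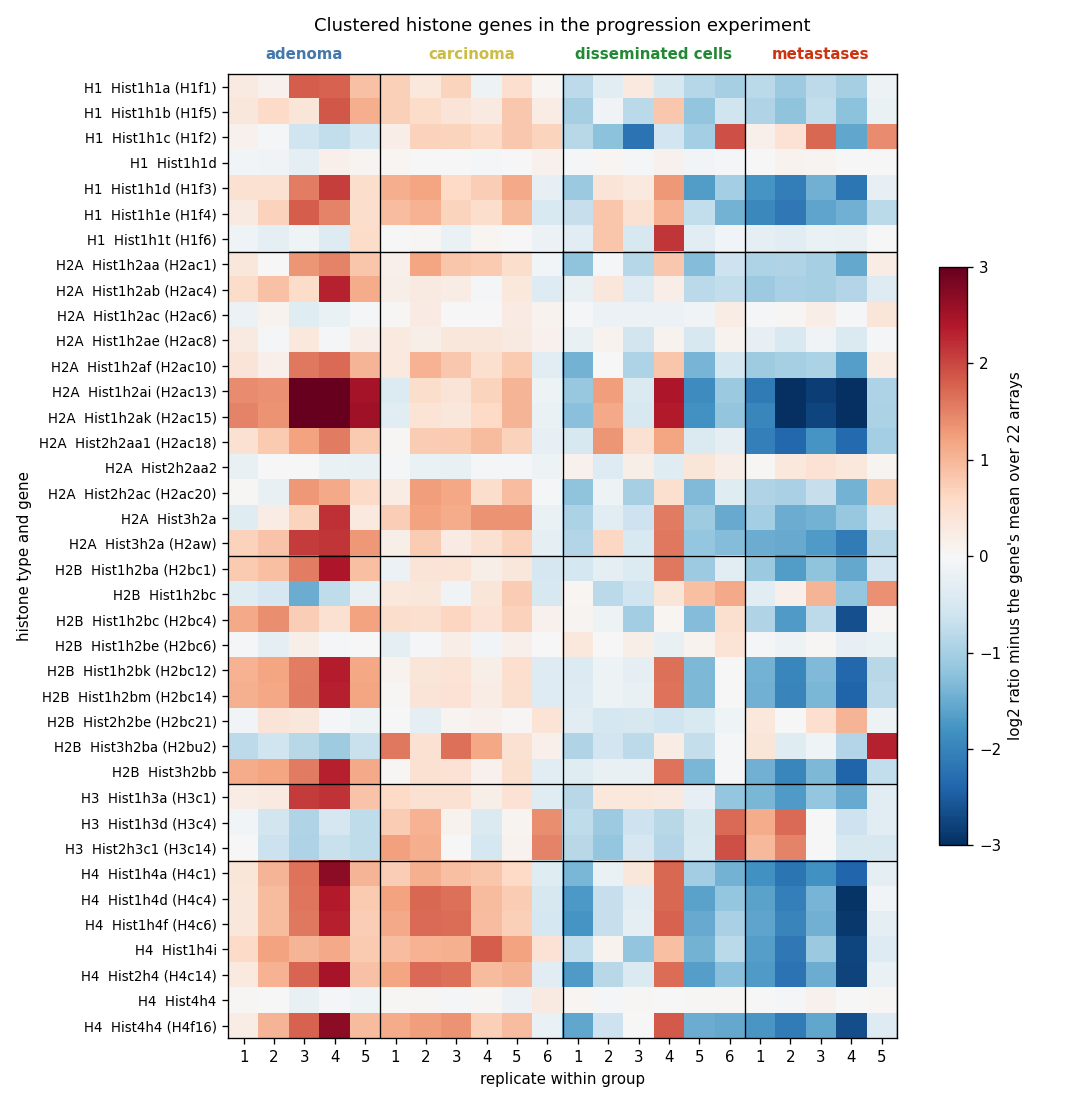
Log2 ratio of each histone entry (vertical, grouped by histone type) on each of the 22 progression arrays (horizontal, by group), minus the entry's mean over the 22 arrays; blue to red colors saturate at a difference of 3. Most H2A, H2B and H4 entries are above their mean in adenoma and below it in metastases, with disseminated replicate 4 closer to the primary tumors than the other disseminated samples.

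Hist1h2ak, which encodes an H2A, stood at a log2 ratio of 0.73, 0.58, 2.22, 2.63 and 1.78 in the adenomas and at −1.07, −0.35, −0.44, −0.17, 0.25 and −0.97 in the carcinomas. In the disseminated cells it stood at −2.02, 0.38, −1.25, 1.61, −2.59 and −1.94, and in the metastases at −2.71, −4.06, −3.53, −4.23 and −1.71. All adenomas were thus higher than all carcinomas and all metastases, and the disseminated cells spanned the range from adenoma to metastases. The mean was 1.59 ± 0.91 (SD, n = 5) in adenoma, −0.46 ± 0.50 (SD, n = 6) in carcinoma, −0.97 ± 1.63 (SD, n = 6) in disseminated cells and −3.25 ± 1.04 (SD, n = 5) in metastases, a difference of −4.84 between metastases and adenoma. Hist1h2ai, also an H2A gene, ran in parallel with means of 1.86, −0.10, −0.59 and −2.96 and a difference of −4.81. Disseminated cells and carcinomas did not enter the choice of these genes, and between them limma gave a log2 change of −0.51 for Hist1h2ak (standard error 0.61, adjusted p = 0.583) and −0.49 for Hist1h2ai (adjusted p = 0.595). The median change from adenoma to metastases was −1.90 over the 38 entries, against 0.015 over all genes. Of the 38 entries 28 were lower in metastases, and without Hist1h2ai and Hist1h2ak the median was −1.80. By type the median was −1.71 for H1, −1.79 for H2A, −2.19 for H2B, 0.90 for H3 and −2.83 for H4. Adenoma and metastases lay on different slides scanned on different days, so group, slide and day cannot be told apart here. The other progression comparisons each share adenomas or metastases with this one, apart from disseminated cells against carcinoma.

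**Figure D2:**
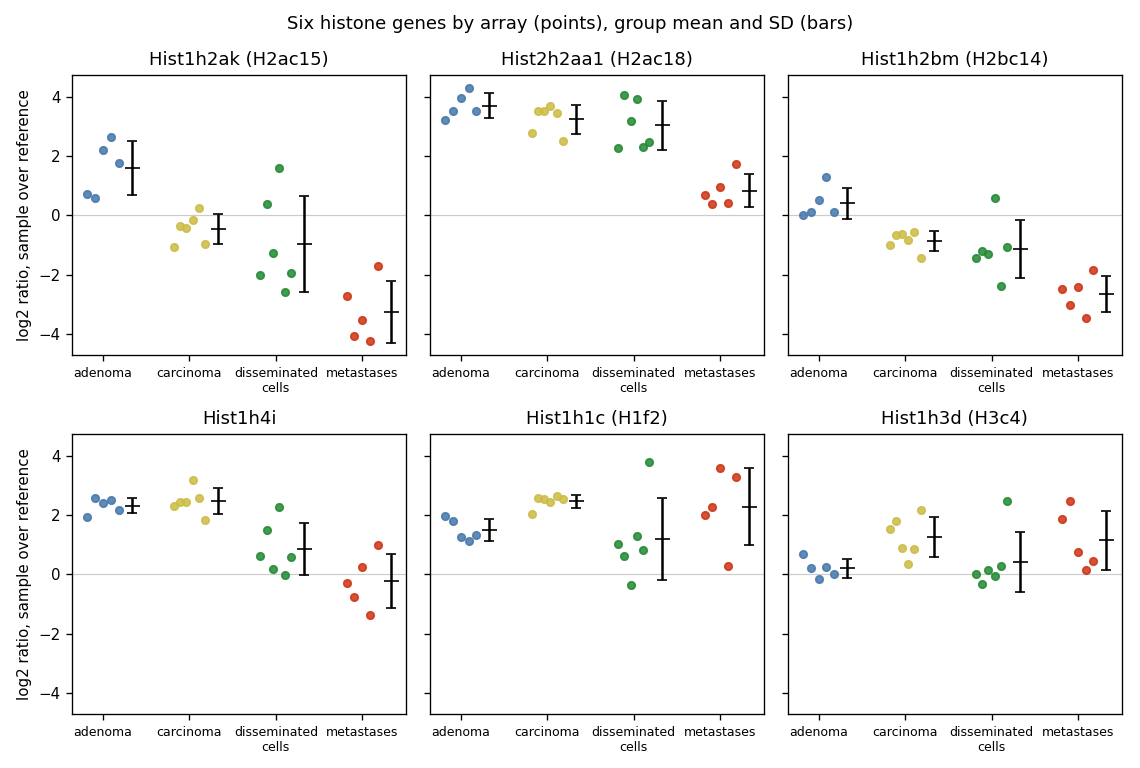
Log2 ratio (vertical) of 6 histone genes in adenoma, carcinoma, disseminated cells and metastases; each point is an array, and the bar and whiskers give the mean and SD. Hist2h2aa1 and Hist1h4i do not overlap between carcinoma and metastases, whereas Hist1h1c and Hist1h3d do.

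Metastases were lower than carcinoma in histone genes of every type. Of the 38 entries 24 were called lower in metastases (limma, adjusted p below 0.05 and at least 2-fold) and 0 higher, where 5.35% of all genes were called lower and 4.73% higher. Without Hist1h2ai and Hist1h2ak the count was 22 of 36, and the 24 calls came from 19 of 32 sets of listed targets. These sets do not join all entries that moved together. Hist1h2ai and Hist1h2ak stand in different sets, as do Hist1h2bk and Hist1h2bm, so 19 is not a number of separate signals. The median change was −1.39, against −0.048 over all genes. Called lower were 6 of 7 H4 entries (median −2.57), 8 of 12 H2A entries (−1.39), 5 of 9 H2B entries (−1.33), 4 of 7 H1 entries (−1.11) and 1 of 3 H3 entries (−0.26). Carcinoma and metastases shared 3 slides, and within these the median change of the 38 entries was −1.09, −1.89 and −1.66, with 30, 35 and 33 entries lower where 60.6%, 56.4% and 58.6% of all genes were.

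Among the H2A genes, Hist2h2aa1 (H2ac18) stood at a log2 ratio of 2.78, 3.52, 3.52, 3.70, 3.44 and 2.51 in carcinoma and 0.68, 0.39, 0.97, 0.40 and 1.73 in metastases. The groups did not overlap, and its level was 5.30-fold lower in metastases (log2 change −2.41, standard error 0.35, limma, adjusted p = 0.000196). The adenomas, at 3.21, 3.54, 3.96, 4.31 and 3.52, and the disseminated cells, at 2.28, 4.07, 3.19, 3.93, 2.30 and 2.46, lay near the carcinomas. Hist1h2aa (H2ac1), known as a testis H2A gene and the H2A entry with the highest signal averaged over both channels, was also lower. It stood at −0.06, 0.96, 0.62, 0.56, 0.30 and −0.31 in carcinoma and −1.14, −1.13, −1.21, −1.74 and 0.00 in metastases, a log2 change of −1.39 (standard error 0.38, adjusted p = 0.0127). Hist2h2ac (H2ac20), Hist1h2af (H2ac10) and both Hist3h2a entries were also called, with log2 changes of −1.32, −1.40, −1.88 and −2.05. The Hist3h2a entry at −2.05 rests on a probe that lists no RefSeq transcript. That probe lies on the minus strand, whereas the other Hist3h2a probes lie on the plus strand. Hist1h2ab (H2ac4) changed by −0.95 (adjusted p = 0.0167) and Hist1h2ae (H2ac8) by −0.51 (adjusted p = 0.00682), both short of 2-fold.

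Among the H4 genes, Hist1h4i stood at a log2 ratio of 2.31, 2.42, 2.44, 3.18, 2.59 and 1.82 in carcinoma and −0.29, −0.78, 0.26, −1.38 and 0.99 in metastases. Every metastasis lay below every carcinoma, and the level was 6.49-fold lower (log2 change −2.70, standard error 0.40, limma, adjusted p = 0.000216). In the adenomas it stood at 1.94, 2.57, 2.39, 2.50 and 2.16, within the range of the carcinomas. The only probe of Hist1h4i lists no RefSeq transcript, so its identity rests on the array name alone. Hist2h4 (H4c14) stood at 0.69, 1.21, 1.16, 0.47, 0.54 and −0.82 in carcinoma and −2.19, −2.71, −1.98, −3.27 and −0.68 in metastases, a log2 change of −2.71 (standard error 0.57, adjusted p = 0.00257). Here carcinoma replicate 6 lay below the highest metastasis. Hist1h4f fell by 2.57 (standard error 0.57, adjusted p = 0.00369) and Hist1h4d by 2.59, Hist4h4 (H4f16) by 2.56 and Hist1h4a (H4c1) by 2.33. The remaining H4 entry, a Hist4h4 probe without a reference symbol, was dim and had a log2 change near 0.

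Among the H2B genes, Hist1h2bm stood at a log2 ratio of −1.01, −0.66, −0.62, −0.83, −0.57 and −1.44 in carcinoma and −2.50, −3.02, −2.43, −3.45 and −1.84 in metastases. The groups did not overlap, and the log2 change was −1.79 (standard error 0.38, limma, adjusted p = 0.00297). Hist1h2bk, the H2B entry with the highest signal, fell by 1.77 (standard error 0.38, adjusted p = 0.00318), Hist3h2bb also by 1.77, Hist1h2bc (H2bc4) by 1.68 and the testis gene Hist1h2ba (H2bc1) by 1.33. The H2B gene Hist2h2be (H2bc21) was not called. It stood between −1.87 and −1.20 in carcinoma and between −1.76 and −0.59 in metastases, a log2 change of 0.27 (adjusted p = 0.289).

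Among the H1 genes, Hist1h1e (H1f4), named after its values were seen, stood at a log2 ratio of −1.86, −1.75, −2.12, −2.27, −1.84 and −3.24 in carcinoma and −4.71, −4.94, −4.37, −4.24 and −3.60 in metastases, a log2 change of −2.19 (standard error 0.42, limma, adjusted p = 0.00140). Hist1h1a (H1f1), Hist1h1b (H1f5) and Hist1h1d (H1f3) were called as well, at −1.11, −1.36 and −2.29. Hist1h1c, the H1 entry with the highest signal, was not called. It stood at 2.04, 2.56, 2.53, 2.42, 2.65 and 2.52 in carcinoma and 2.01, 2.28, 3.57, 0.28 and 3.27 in metastases, with a log2 change of −0.17 (standard error 0.56, adjusted p = 0.881). The metastases lay on both sides of the carcinomas. Hist1h1t (H1f6), the testis H1 gene, changed by −0.16 (adjusted p = 0.798).

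Among the H3 genes, Hist1h3a (H3c1), named after its values were seen, fell by 1.51 (standard error 0.37, limma, adjusted p = 0.00751). It stood between −0.43 and 0.54 in carcinoma and at −1.44, −1.77, −1.24, −1.59 and −0.41 in metastases. Hist2h3c1 (H3c14) stood at 2.01, 1.87, 0.76, 0.24, 0.87 and 2.26 in carcinoma and 1.74, 2.27, 0.78, 0.29 and 0.30 in metastases, a log2 change of −0.26 (standard error 0.50, adjusted p = 0.784). Hist1h3d (H3c4), whose values closely tracked it, changed by −0.12 (standard error 0.47, adjusted p = 0.903). With 3 H3 entries, a pair of which moved as one, the type is thinly covered.

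Markers of other cells moved with this comparison. Of 20 macrophage genes, 20 were higher in metastases than in carcinoma, 5 of them called. Of 11 lung epithelial genes 4 were called higher and 1 lower, of 10 endothelial genes 1 higher and 1 lower, and of 14 mammary epithelial genes 2 lower. The mean log2 ratio of the macrophage list was 3.61, 0.83, 4.26, 4.96 and 1.36 in the metastases and 0.84, 0.47, 0.23, 0.05, −0.43 and 4.66 in the carcinomas. Metastasis replicates 2 and 5, with the lowest macrophage means of their group, had histone medians of −1.41 and −0.29, and carcinoma replicate 6, with the highest of its group, had −0.49. The mammary epithelial list (14 genes) had means of 3.28, 4.15, 3.07, 0.46 and 3.44 in metastases and 2.13 to 3.67 in carcinoma. With the macrophage mean as a covariate the median histone change was −1.08 and 9 of 38 entries were called. With that covariate and without carcinoma replicate 6, a setting chosen after seeing the data, the median was −1.03 and 0 entries were called by limma. In this setting the carcinomas lay at −0.43 to 0.84 and the metastases at 0.83 to 4.96, so covariate and group can hardly be separated.

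**Figure D3:**
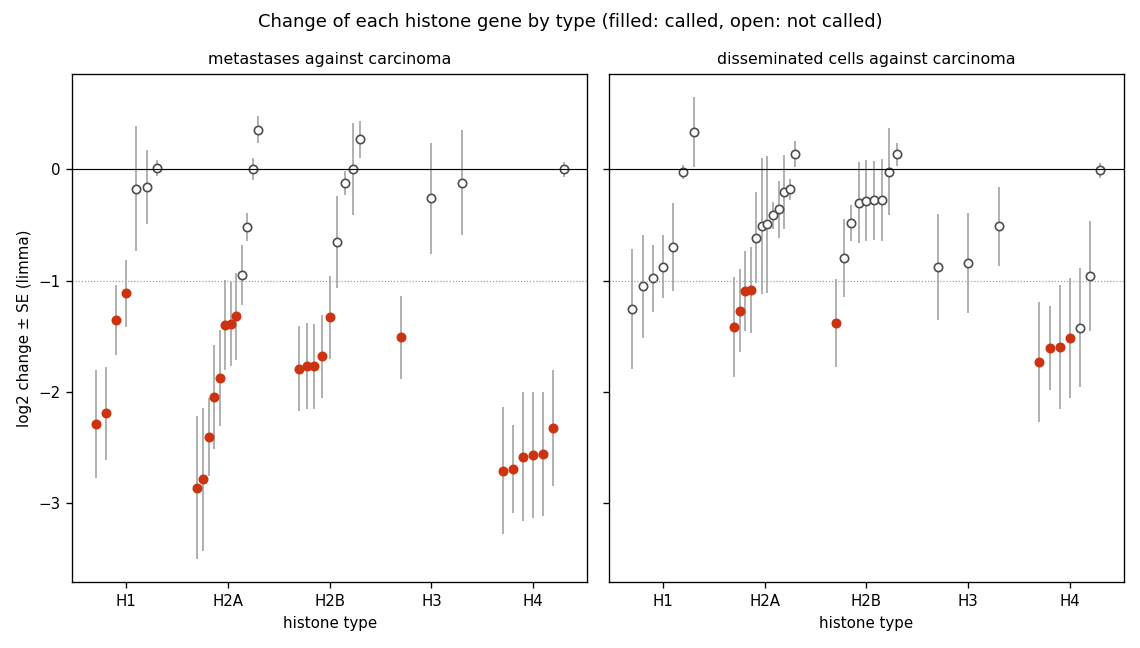
Log2 change (vertical) with its standard error of each histone entry, grouped by type (horizontal), for metastases against carcinoma and disseminated cells against carcinoma. Filled points were called (adjusted p below 0.05 and at least 2-fold). In metastases 24 entries are called lower, 6 of the 7 H4 entries among them, and in disseminated cells 9.

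Disseminated cells were lower than carcinoma in some H4, H2A and H2B genes. Of the 38 entries 9 were called lower and 0 higher, where 6.12% of all genes were called lower and 5.48% higher. The median change was −0.65, against −0.067 over all genes. The 9 entries were 4 of 7 H4, 4 of 12 H2A and 1 of 9 H2B, with median changes of −1.52, −0.50 and −0.28 for the types. H1 and H3, with medians of −0.87 and −0.84, had 0 calls by limma. At an unadjusted p below 0.05 there were 17 of the 38, where 38% of all genes passed. The groups compared hold no sample that led to the choice of the genes. The normalization and the estimate of spread behind the calls were nevertheless shared with the adenoma and metastasis arrays. Carcinoma and disseminated cells lay on different slides scanned on different days, which cannot be told apart from the groups.

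Hist1h4i stood at a log2 ratio of 0.63, 1.48, 0.19, 2.27, −0.04 and 0.57 in disseminated cells, and 5 of 6 lay below all carcinomas. Its log2 change was −1.61 (standard error 0.38, limma, adjusted p = 0.00415). Hist2h4 stood at −2.19, −1.32, −0.91, 1.19, −2.15 and −1.75, a change of −1.73 (standard error 0.54, adjusted p = 0.0226), and again replicate 4 alone lay among the carcinomas. Hist1h4d changed by −1.60 (standard error 0.55, adjusted p = 0.0384) and Hist1h4f by −1.52 (adjusted p = 0.0440). The Hist1h4d probe used lists 4 genes. The probe that lists H4c4 alone had closer means, −0.73 in carcinoma and −1.60 in disseminated cells. Of the H2A genes, Hist1h2aa stood at −1.43, −0.24, −1.07, 0.60, −1.53 and −0.83 and fell by 1.10 (standard error 0.36, adjusted p = 0.0295). Hist1h2af, Hist2h2ac and the Hist3h2a entry whose probe lists no RefSeq transcript fell by 1.08, 1.27 and 1.42. Another Hist1h2af probe had closer means, −0.94 in carcinoma and −1.31 in disseminated cells. Hist1h2bm (−0.28, adjusted p = 0.623) and Hist2h2aa1 (−0.20, standard error 0.33, adjusted p = 0.694) were not called.

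Hist3h2ba (H2bu2), an H2B gene of the Hist3 cluster, was highest on average in carcinoma. It stood at a log2 ratio of −0.61, −0.41, −0.64, −0.88 and −0.49 in adenoma, where 3 of 5 arrays were above background, and at 1.78, 0.65, 1.84, 1.34, 0.64 and 0.35 in carcinoma. The disseminated cells were at −0.71, −0.39, −0.60, 0.40, −0.52 and 0.13, and the metastases at 0.54, −0.17, 0.05, −0.70 and 2.50. Carcinoma was thus above all adenomas, by 1.70 (standard error 0.42, limma, adjusted p = 0.0125), and disseminated cells were 1.38 below carcinoma on the log2 scale (standard error 0.40, adjusted p = 0.0142). Metastases spread over the whole range and differed from carcinoma by −0.65 (adjusted p = 0.291).

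In disseminated cells too, markers of other cells moved with the histone genes. Against carcinoma 15 of 20 macrophage genes, 8 of 11 neutrophil genes, 6 of 11 lung epithelial genes, 5 of 12 T and NK cell genes and 4 of 10 endothelial genes were called higher, and 5 of 14 mammary epithelial genes and 1 lung epithelial gene lower. The macrophage mean was 3.54 to 4.91 in the 6 disseminated samples, lowest in replicate 4, whose histone median was the highest of its group. That array also had the lowest median signal of the group, as given above, and the lowest share of spots above background, 63.8%. Of the carcinomas only replicate 6 had a macrophage mean in the disseminated range (4.66), so this mean nearly follows the group. A fit with the macrophage mean as a covariate therefore cannot separate it from the group. In that fit 0 of 38 entries were called by limma and the median histone change was −0.16. The share of all genes called in it is not given. With that covariate and without carcinoma replicate 6 the median was −0.043. The number of calls, 9, was 3 without disseminated replicate 1 or 5, 4 without carcinoma replicate 2 or 3, 5 without carcinoma replicate 4 or 5, and 13 without disseminated replicate 4.

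Against adenoma, with which they shared 3 slides, disseminated cells were lower for 21 of 38 entries and higher for 0, where 5.84% of all genes were called lower and 4.64% higher. Without Hist1h2ai and Hist1h2ak the count was 19 of 36. The median change was −1.32, against −0.0092 over all genes. Within the 3 slides it was −1.90, −1.34 and −0.79, with 28, 32 and 31 entries lower where 56.6%, 46.4% and 51% of all genes were. Called lower were 6 of 7 H4, 7 of 12 H2A, 5 of 9 H2B, 2 of 7 H1 and 1 of 3 H3 entries, with type medians of −1.77, −1.25, −1.30, −1.04 and 0.22. Hist2h4 was at −0.20, 0.55, 1.26, 1.99 and 0.39 in adenoma and fell by 1.99 (standard error 0.57, limma, adjusted p = 0.0180), whereas Hist2h2aa1 changed by −0.67 (adjusted p = 0.185) and Hist1h1c by −0.29 (adjusted p = 0.764). Of the macrophage genes 18 of 20 were called higher, as were 7 of 11 neutrophil, 7 of 10 endothelial and 6 of 11 lung epithelial genes, and 4 of 14 mammary epithelial genes and 1 lung epithelial gene were called lower. With the macrophage mean as a covariate 1 of 38 entries was called and the median was −0.40. The macrophage mean was 0.10 to 0.75 in adenoma and 3.54 to 4.91 in disseminated cells, so that fit cannot separate it from the group. Without adenoma replicate 4, whose histone median was the highest of all arrays, 13 entries were called.

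Metastases were lower than disseminated cells for 7 of 38 entries and higher for 0, where 3.68% of all genes were called lower and 3.44% higher, with a median change of −0.61 against 0.0082 over all genes. Without Hist1h2ai and Hist1h2ak the count was 5 of 36. The calls were 3 of 12 H2A, 3 of 9 H2B and 1 of 7 H1 entries, and 0 of 7 H4 entries, whose median change was −1.05. For Hist2h2aa1 every metastasis lay below every disseminated sample (log2 change −2.20, standard error 0.35, limma, adjusted p = 0.000599). Hist1h2bm fell by 1.52 (adjusted p = 0.0128) and Hist1h1e had a log2 change of −1.498 (adjusted p = 0.0223). Of the 20 macrophage genes 1 was called lower and of 11 neutrophil genes 7. With the macrophage mean as a covariate the count was 13. It was 4 without disseminated replicate 2 or metastasis replicate 2, and 11, 12 and 13 without disseminated replicate 5, disseminated replicate 6 and metastasis replicate 5. The groups lay on different slides and scan days.

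Carcinoma differed from adenoma in few histone genes. Of 38 entries 5 were called lower and 1 higher, where 2.13% and 1.16% of all genes were, and the median change was −0.25 against 0.065 over all genes. The 5 were Hist1h2ak, which helped to choose the genes, and the H2B genes Hist1h2bm, Hist1h2bk, Hist3h2bb and Hist1h2ba, the first 3 of which moved as one. The 1 called higher was Hist3h2ba. Hist1h2bm stood at a log2 ratio of 0.01, 0.11, 0.50, 1.29 and 0.13 in the adenomas, all above the carcinomas, and fell by 1.26 (standard error 0.38, limma, adjusted p = 0.0377). Of other marker lists, 3 of 12 T and NK cell genes and 2 of 9 fibroblast genes (median −1.05) were called lower, and 2 of 6 erythroid genes and 1 of 10 endothelial genes higher, and their part in the histone result was not tested. Hist1h1c (0.96, standard error 0.56, adjusted p = 0.284) and Hist2h3c1 (1.16, adjusted p = 0.138) were not called. The count of 6 was 1 without adenoma replicate 4, carcinoma replicate 4 or carcinoma replicate 6, 2 without adenoma replicate 3 or carcinoma replicate 1, 2 or 3, and 3 without adenoma replicate 2. With the scanner's processed signals or median centring it was 1 higher and 0 lower, and with Aquantile or no normalization between arrays 0 higher and 1 lower. These groups too lay on different slides and days.

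A few genes had probes that did not give the same result, which bounds what a gene name stands for. For Hist1h1d, an H1 gene, the probe that stands for it changed by −2.29 from carcinoma to metastases. Another probe changed by 0.53 (limma, adjusted p = 0.4655). It lies 1751 bases away by the array's own coordinates and so farther than the 776 bases listed for the reference gene. A further probe under this name was well above background on no progression array. For Hist3h2a, an H2A gene, the plotted probes lie 567 bases apart and the reference gene has a listed length of 508. One of them changed by −1.07 from adenoma to carcinoma (adjusted p = 0.113) and by −0.61 from carcinoma to disseminated cells (adjusted p = 0.298), and the other by 0.95 (adjusted p = 0.0526) and −2.11 (adjusted p = 0.000104). Both fell in metastases against carcinoma, by 1.88 and 1.43. For Hist1h2af, an H2A gene, the probe that stands for it had means of 0.75 in adenoma and 0.29 in carcinoma. Another Hist1h2af probe, which also lists H2ac15 (Hist1h2ak), had means of 1.32 and −0.94. For the name Hist1h2bc, of an H2B gene, the entry H2bc4 changed by −1.68 and the other entry by 0.01. Their probes lie 1854818 bases apart, where the reference gene has a listed length of 8282, and the probe of the other entry lists no RefSeq transcript. The pair therefore does not show a single gene giving different results. The probe of Hist3h2bb lists transcripts of H2bu2, the reference symbol of Hist3h2ba, yet from adenoma to carcinoma Hist3h2bb was called lower (−1.26) and Hist3h2ba higher (1.70).

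**Figure D4:**
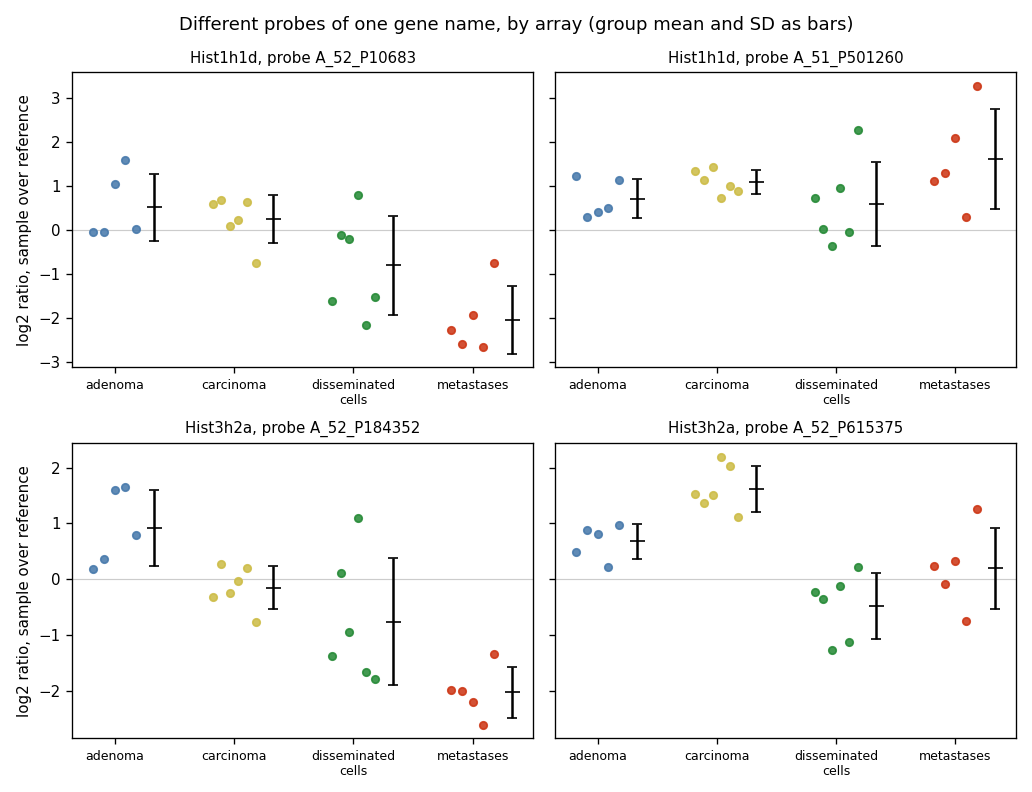
Log2 ratio (vertical) of 2 probes each of Hist1h1d and Hist3h2a in the 4 progression groups. Each point is an array, and the bar and whiskers give the mean and SD. A further probe under each name is not plotted. The Hist1h1d probes part in metastases, and the Hist3h2a probes have means of −0.15 and 1.63 in carcinoma and −2.03 and 0.20 in metastases, whereas they lie closer in adenoma (0.92 and 0.68) and disseminated cells (−0.76 and −0.48).

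Genes that accompany histone synthesis were followed in the same comparisons. From carcinoma to metastases, of 35 DNA replication and G1/S genes, 2 were called higher and 1 lower (median −0.22). Pcna, the replication clamp, rose by 2.10 (limma, adjusted p = 0.00597) and Pold1, the catalytic subunit of DNA polymerase delta, fell by 1.17 (adjusted p = 0.00834). Of 23 mitosis genes, 0 were called by limma (median −0.22). In disseminated cells against adenoma 10 of the 35 replication genes and 14 of the 23 mitosis genes were called lower and 0 higher, among them Tyms, the thymidylate synthase, at −1.76 (adjusted p = 0.000730) and Ccnb1, cyclin B1, at −2.01 (adjusted p = 0.00875). In carcinoma against adenoma 6 of 35 and 6 of 23 were called lower, with Uhrf1 at −1.496 (adjusted p = 0.00104) and Top2a at −1.31 (adjusted p = 0.0107). In disseminated cells against carcinoma 1 replication gene was called higher and 3 lower, including Tk1 at −1.34 (adjusted p = 0.00273), and 1 mitosis gene lower, Ccnb1 at −1.53 (adjusted p = 0.0232). In metastases against disseminated cells 1 replication gene was called higher, Pola1 at 1.02, and 1 lower, Mcm3 at −1.05, and 0 mitosis genes were called by limma.

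Among 12 genes of histone mRNA transcription and processing, Slbp, which binds the stem-loop, rose by 1.11 from carcinoma to metastases (limma, adjusted p = 0.0197), and by 1.001 from carcinoma to disseminated cells (adjusted p = 0.0224). Npat fell by 1.35 from adenoma to carcinoma (adjusted p = 0.00943) and by 1.03 from adenoma to disseminated cells (adjusted p = 0.0247), and between carcinoma and metastases its change was 0.10 (adjusted p = 0.879). In metastases against carcinoma the list had 2 genes called higher and 1 lower, with Cpsf2, a subunit of the cleavage complex, at 1.18 (adjusted p = 0.00306) and Sympk, its scaffold, at −1.07 (adjusted p = 0.0144). In disseminated cells against carcinoma 3 were called higher and 0 lower, with Casp8ap2 at 1.09 (adjusted p = 0.00132) and Eri1, an exonuclease of histone mRNA, at 1.07 (adjusted p = 0.00461). In metastases against disseminated cells Eri1 alone was called, at −1.61 (adjusted p = 0.000792). Slbp also stands in the list of replication genes.

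Of 17 histone chaperone genes, 2 were called higher and 3 lower in metastases against carcinoma. Hat1, the acetyltransferase of newly made H4, rose by 1.25 (limma, adjusted p = 0.00120), and Rbbp4, a histone-binding subunit of several complexes, fell by 1.44 (adjusted p = 0.00124). Chaf1b, a subunit of the CAF-1 chaperone, fell by 1.303 from adenoma to carcinoma (adjusted p = 0.0217) and by 1.72 from adenoma to disseminated cells (adjusted p = 0.00277). In disseminated cells Hat1 was 1.06 above adenoma and Rbbp4 was called lower against carcinoma, at −1.36, and in metastases against disseminated cells Nap1l4 changed by 1.60 and Cabin1 by −1.31. Of 11 histone variant genes outside the clusters, whose mRNAs are mostly polyadenylated, 1 was called higher and 2 lower in metastases against carcinoma. Macroh2a1 rose by 1.16 (adjusted p = 0.000694) and H2aj fell by 1.61 (adjusted p = 0.00518). In disseminated cells against carcinoma 1 variant gene was called higher, H3f3a with 1.39 (adjusted p = 0.0330), and 3 lower, with H1f0 at −1.84 (adjusted p = 0.000326). Against adenoma H3f3a was 1.98 higher in disseminated cells (adjusted p = 0.00845) and H1f0 was at −1.19, and metastases exceeded disseminated cells for H3f3b by 2.31 (adjusted p = 0.0173).

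In the chemotherapy experiment the histone genes differed little between the groups. Of 38 entries 0 were called by limma in residual against untreated tumors, in relapsed against untreated tumors and in relapsed against residual tumors, where 0.101%, 0.00347% and 0.212% of all genes were called in either direction. At an unadjusted p below 0.05 there were 0, 0 and 3 entries, where 9.07%, 7.66% and 7.75% of all genes passed. The median change of the 38 was −0.036, −0.026 and 0.018, and single entries ranged from −0.69 to 0.29, from −0.23 to 0.35 and from −0.33 to 0.69. The sample channel was above background on every array for 30 entries, on some for 4 and on none for 4. The median of all 38 was −0.21 to −0.05 in untreated, −0.27 to −0.02 in residual and −0.17 to −0.03 in relapsed tumors, so the groups overlapped.

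By type, the median changes in residual against untreated tumors were −0.21 for H2A, 0.07 for H2B and 0.12 for H4, and in relapsed against residual tumors 0.39, −0.11 and −0.20. Hist1h2ak stood at a log2 ratio of −3.40 to −1.41 in untreated tumors (median −2.51), −3.96 to −2.10 in residual tumors (median −3.25) and −3.67, −2.09, −2.15 and −2.80 in relapsed tumors. Its change in residual against untreated tumors was −0.69 (standard error 0.37, limma, adjusted p = 0.616), the lowest of the 38. Hist1h4i stood at 2.14 to 2.87 in untreated tumors (median 2.57), 0.84 to 3.43 in residual tumors (median 2.51) and 3.19, 2.97, 2.62 and 2.85 in relapsed tumors, with a change of −0.15 in residual against untreated tumors (standard error 0.33, adjusted p = 0.925). Residual replicate 2 was the lowest for Hist1h4i and for Hist1h1c. The 3 entries with an unadjusted p below 0.05, all in relapsed against residual tumors, were Hist1h1c (log2 change 0.62, adjusted p = 0.544, the smallest of the 38), Hist2h2ac (0.44) and Hist2h2aa2. The last was not well above background on any residual or relapsed array, so no change is given for it. Hist1h1c stood at 1.90, 0.60, 1.69, 0.91, 1.34 and 2.02 in residual and at 1.94, 2.24, 2.21 and 1.72 in relapsed tumors. Of the lists of replication, mitosis, histone mRNA processing, chaperone and variant genes 0 were called in any of these comparisons by limma. The macrophage mean was −0.35 to 2.17 in untreated, −0.49 to 1.39 in residual and −0.81 to 0.68 in relapsed tumors.

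**Figure D5:**
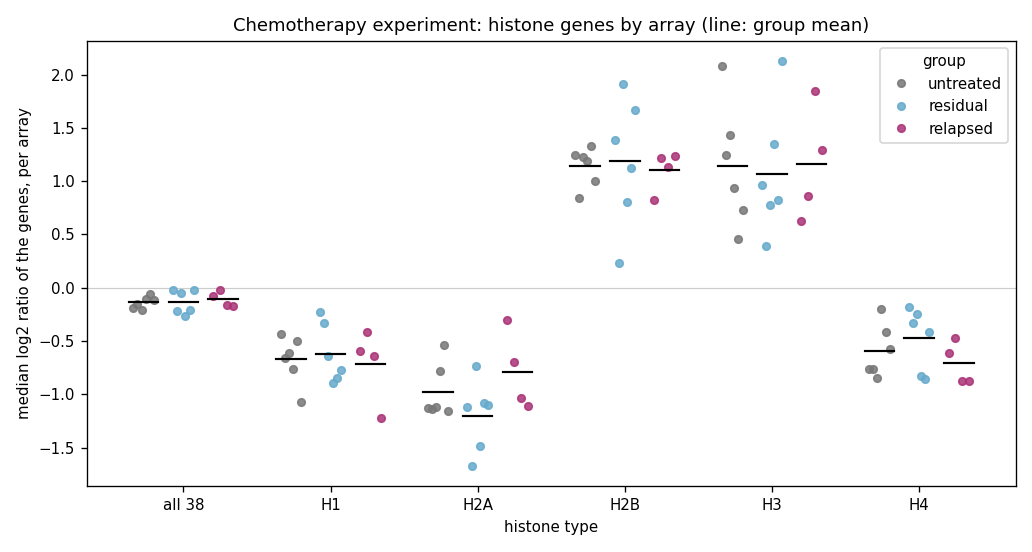
Median log2 ratio (vertical) of the histone entries of each type on each of the 16 chemotherapy arrays, in untreated, residual and relapsed tumors; each point is an array and the line is the group mean. The groups overlap for every type.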

How the data were processed

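The data are 38 Agilent arrays with 2 channels. The authors deposited spot intensities from Feature Extraction 10.7 (mean signal and median background of each channel) and a matrix of log2 ratios, background-corrected and normalized by the authors, which served as an alternative (correlation with the values used, 0.969 to 0.999 per array). From the deposited intensities, limma 3.58.1 in R 4.3.3 (statmod 1.5.0, data.table version 1.17.8) gave log2 ratios after normexp (offset 50), loess within arrays and quantile normalization within each experiment. The probe with the highest mean signal, averaged over the sample and reference channels, stood for its gene. The entry of highest signal within a type was taken by the same average. All groups of an experiment entered 1 moderated linear model with Benjamini-Hochberg adjustment over 28786 genes. Calls required an adjusted p below 0.05 together with an absolute log2 change of 1 or more. No entry was filtered for low signal. Labels do not say that replicates are separate animals, so p-values measure the spread between these samples. The number of arrays limits the precision.

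Histone genes and lists were chosen with earlier results of these data known. Named genes are the 2 that led to the choice, for each comparison up to 3 called rises and 3 called falls, per type the entry with the highest signal, Slbp, Npat, the largest called rise and fall of each list, and genes with discordant probes. Other histone genes were named with their values known, which is said in the text only for Hist1h1e and Hist1h3a. Replicate numbers did not pair the samples. The build of the array coordinates is not given in the sources used here. The procedure was tested on simulated data. Alternatives were other background corrections, normalizations, probe rules, blocks, tests and thresholds, a macrophage covariate and each replicate left out.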

Additional observations from a re-analysis of the deposited data

Results flagged for a closer look

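Over 140 sets of values (the histone median per array, the type medians and the named genes, each within a group of 4 to 6 arrays), 7 had an array far from the others of its group by Dixon's criterion, which by chance marks about 1 in 20 groups. Carcinoma replicate 6 stood apart with a histone median of −0.49 (the others 0.07 to 0.35), an H1 median of −0.75 (the others −0.21 to 0.03) and a Hist2h4 log2 ratio of −0.82 (the others 0.47 to 1.21). This array had a macrophage mean of 4.66 and correlated with the other carcinomas at a median of 0.760, where each of those reached 0.939 to 0.958. Metastasis replicate 5 had an H1 median of −0.75, above the others at −2.03 to −1.73. Disseminated replicate 4 had an H2B median of 0.59, above the others at −1.76 to −0.98. Disseminated replicate 6 had an H3 median of 2.46 (the others −0.34 to 0.29) and a Hist2h3c1 log2 ratio of 2.72 (the others −0.38 to 0.32). Counts without these arrays are given with the comparisons they move.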

How the results depend on the processing

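No called value of the histone genes followed across alternatives (those with the largest called changes, the highest signal of a type or a part in the choice) changed direction. For genes of the other lists and for single probes no alternative was run. Over all alternatives 194 counts stayed within 1.5 times the reported one and 50 did not, 232 medians moved by less than 1 SD and 5 by more, and values of these histone genes kept their side of the thresholds 1655 times, lost a call 172 times and gained one 5 times. For carcinoma against adenoma the count of 6 was 1 with the scanner's processed signals, median centring, Aquantile or no normalization between arrays. It was 10 with an equal-variance t-test unadjusted and 0 at an adjusted p below 0.01. For disseminated cells against adenoma 21 became 10 with only these groups in the fit, 3 with the t-test adjusted, 8 at the stricter threshold, and 1 with the macrophage covariate (median −0.40). For metastases against carcinoma 24 became 9 with the covariate and 0 with it and without carcinoma replicate 6. For metastases against disseminated cells 7 became 1 with only these groups, 0 with the t-test adjusted, 1 at the stricter threshold and 13 with the covariate. For disseminated cells against carcinoma 9 became 4 with Aquantile or no normalization between arrays, 5 with the deposited ratios, 3 with the t-test adjusted, 1 at the stricter threshold and 0 with the covariate, with or without carcinoma replicate 6 (median −0.043 without it). Restricted, after seeing the data, to probes that list at most 1 transcript, the counts were 3, 12, 14, 2 and 5 in the same order, as fewer entries are counted, and restricted to entries above background the median of metastases against adenoma was −2.55. The median for residual against untreated tumors was −0.13 with processed signals. The cause was not tested for the other shifts. In disseminated cells against carcinoma or adenoma the macrophage covariate nearly follows the group, so those fits cannot separate it from the group. With the replicate number as a block, which did not pair the samples (at least one pair in every comparison had a correlation of deviations below 0.1), the counts were 1 for carcinoma against adenoma and 11 for metastases against disseminated cells, and the block moved no other count by over 1.5 times. With single replicates left out, counts ran from 1 to 7 for carcinoma against adenoma, 13 to 24 and 22 to 26 for disseminated cells against adenoma and metastases against carcinoma, 3 to 13 for disseminated cells against carcinoma, 4 to 13 for metastases against disseminated cells, and were 0 after chemotherapy. The medians ran from −0.46 to −0.054, −1.47 to −1.06, −1.67 to −1.26, −0.88 to −0.51 and −0.74 to −0.41 in that order, from −2.09 to −1.65 for metastases against adenoma, and from −0.057 to −0.0061, −0.060 to 0.051 and −0.035 to 0.072 for residual and relapsed against untreated and relapsed against residual tumors. Dim entries limit what could be detected: 10 of 38 were below background on some or all progression arrays.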
